A study of Mus musculus with 2 samples.

Results

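The unfolded protein response and the integrated stress response adjust protein folding and translation to the load of a cell. A total of 36 of their genes was described here in mouse Th17 cells with and without the long non-coding RNA lncRNA-GM. The genes were chosen by symbol from textbook membership of the pathway. The choice was made with earlier results of these data known. All 36 were found among the 17002 genes of the table. Each reached at least 1 FPKM (sequenced fragments scaled to transcript length and library size) in at least 1 library. The question was whether known targets of the transcription factor Xbp1 followed Xbp1, apart from the arms that run through Atf4 and Atf6.

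The study compared 2 libraries, 1 per genotype. Naive CD4+ T cells of C57BL/6 mice, taken from spleen, were grown under Th17-polarising conditions for 3 days, and total RNA was sequenced. The wild-type library carried no modification named in the labels. The other came from lncRNA-GM-/- mice, titled ko8 in the labels, which do not say how the deletion was made, whether 1 or several mice were pooled, or how old they were. lncRNA-GM had no row that could be matched by name, and the knockout could not be checked on the deleted gene. With 1 library per genotype no spread between cultures could be estimated and no test was run. Every difference below describes these 2 libraries. Ratios are log2 of knockout over wild-type FPKM + 1, values given in pairs have the wild type first, and intervals are 95% exact (Clopper-Pearson) counting intervals of the read ratio without pseudocount, which cover counting error only. Percent differences of single genes are of FPKM without pseudocount, so they need not match the log2 ratio beside them.

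Depth was close in the libraries, at about 19400000 fragments in wild-type and 19100000 in knockout cells. The T cell identity of the cells was checked with 9 pan-T and CD4 markers, of which none differed 1.5-fold and whose FPKM values summed to 3078 in the wild type and 3417 in the knockout. Markers of T cell subsets differed more. The 8 Th17 markers summed to 1590 and 642 FPKM, the 8 markers of CD8 T and NK cells to 1832 and 625 FPKM, and the 8 markers of regulatory T cells to 1539 and 1786 FPKM. Of the measured markers, 7 of 8, 7 of 7 and 0 of 8 were lower by 1.5-fold or more in these lists, and 6 of 8 regulatory T cell markers were higher. Over all measured genes, 5.19% were lower and 2.71% higher by that limit. Among single genes, Cd4 was at 174 FPKM in wild-type and 213 FPKM in knockout cells. Cd8b1 was at 212 and 126 FPKM and Cd8a at 98.1 and 55.7 FPKM, so both libraries held CD8 lineage RNA. Gzma made up most of the CD8 T and NK cell sum, at 1254 and 358 FPKM. Il17f and Il17a made up most of the Th17 sum, at 1056 and 382 FPKM and at 392 and 178 FPKM. Ccr6 was the 1 Th17 marker that was higher, at 3.35 and 4.85 FPKM. Il2ra, at 739 and 783 FPKM, and Ctla4, at 497 and 472 FPKM, made up most of the regulatory T cell sum. That sum therefore says little on less abundant markers such as Foxp3, at 6.08 and 15.6 FPKM. The part of these subsets in the values below was not tested. In these bulk samples, fewer cells of a type and less RNA per cell cannot be told apart.

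Proteins that misfold in the endoplasmic reticulum (ER) are sensed by membrane proteins that each start an arm of the response. IRE1, encoded by Ern1, cuts a short intron out of Xbp1 RNA in the cytoplasm, and the spliced RNA encodes the active Xbp1 factor, which is known for expanding the secretory machinery of plasma cells and other secretory cells. ATF6 is cleaved in the Golgi to release a factor that induces ER chaperones. PERK, encoded by Eif2ak3, phosphorylates eIF2α, as GCN2, encoded by Eif2ak4, does when amino acids are short, and this favours translation of Atf4. Gene-level RNA values measure none of these activation steps.

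The site that IRE1 cuts is shown because it is the part of Xbp1 that decides which protein is made, and because the table gives a single value for the gene. In the longest coding Xbp1 transcript of GENCODE M21, 2129 bases long, a search for the cleavage motif CNGCAG at both ends of a 26-base stretch found 2 stretches. Removing the stretch at bases 818 to 843 lengthens the reading frame from 267 to 371 codons, whereas removing the other, at bases 461 to 486, shortens it to 73 codons. Capitals mark the 26 bases whose removal gives the longer frame.
Xbp1: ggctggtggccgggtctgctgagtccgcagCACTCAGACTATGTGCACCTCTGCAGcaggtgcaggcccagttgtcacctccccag
Spliced and unspliced Xbp1 RNA both count towards the FPKM value of the gene and were not separated here.

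Promoter elements of the targets are shown next, because they are the sequences through which ATF6 and Xbp1 are known to act. RefSeq promoter windows on GRCm38.p6 (250 bases before to 50 bases after the start) were found for 32 of the 36 genes. The ER stress response element ERSE, searched on both strands as CCAAT and CCACG with 9 bases between them, was present in 8 of these 32 genes and in 0.137% of all 27025 genes with a window. The 8 genes were Hspa5, Hsp90b1, Calr, Canx, Pdia6, Dnajc3, Creld2 and Syvn1. The 4 printed below are those of the 8 with the lowest and the highest ratios, and capitals mark the fixed letters of the element, on the gene's strand or its reverse complement.
Hspa5, chr2:34772005-34772063, plus strand: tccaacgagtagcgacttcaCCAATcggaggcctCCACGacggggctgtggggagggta
Dnajc3, chr14:118937807-118937865, plus strand: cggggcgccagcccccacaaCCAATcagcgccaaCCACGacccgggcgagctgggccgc
Calr, chr8:84847055-84847113, minus strand: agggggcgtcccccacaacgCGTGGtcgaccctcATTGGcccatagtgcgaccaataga
Syvn1, chr19:6046512-6046570, plus strand: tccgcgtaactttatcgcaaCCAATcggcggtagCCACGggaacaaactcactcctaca
The element lies from base 65 to base 47 before the start in Hspa5, from 105 to 87 in Dnajc3, from 162 to 144 in Calr and from 44 to 26 in Syvn1.

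The related ERSE-II, searched on both strands as ATTGG and CCACG with 1 base between them, was present in Herpud1 and Dnajb11 and in 0.0444% of all genes with a window. The Xbp1-type UPRE core, searched as TGACGTGG on both strands, was found in Sec24d alone among the 32 genes and in 0.714% of all genes. The C/EBP-ATF element through which ATF4 acts, searched as TGATGNAAN on both strands, was found in Atf3, Chac1, Trib3, Asns and Herpud1, and in 4.50% of all genes. The shorter CCACG, which ERSE and ERSE-II contain, was in 24 of the 32 genes and in 35.5% of all genes. Sec24d and Herpud1 are printed as the UPRE core and ERSE-II examples, and Chac1 and Asns as examples of the ATF4 type. The Sec24d window belongs to a start inside the gene, which runs from 123264801 to 123365641.
Sec24d, chr3:123267450-123267495, plus strand: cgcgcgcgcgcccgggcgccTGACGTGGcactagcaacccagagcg
Herpud1, chr8:94386357-94386407, plus strand: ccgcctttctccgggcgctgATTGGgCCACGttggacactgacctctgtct
Chac1, chr2:119351028-119351076, plus strand: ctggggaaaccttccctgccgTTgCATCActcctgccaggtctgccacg
Asns, chr6:7693210-7693252, minus strand: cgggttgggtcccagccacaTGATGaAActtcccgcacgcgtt
A match in these windows is a description of letters and not evidence of binding.

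Xbp1 was higher in the knockout library, at 106 FPKM in wild-type and 241 FPKM in knockout cells. Its log2 ratio was 1.19, a 2.27-fold difference on FPKM + 1, and the counting interval ran from 1.14 to 1.25 on about 4360 and 9810 reads. Among the 36 genes Xbp1 ranked 11 by FPKM in the wild type and 3 in the knockout. Of 10998 genes measured, 77 had a higher ratio. Among the 800 genes that reached 100 FPKM in at least 1 library, 10 had a ratio of 2-fold or more towards the knockout, and Xbp1 had the 8th highest ratio.

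Ern1, the kinase and nuclease that cuts Xbp1 RNA, was nearly equal, at 13.4 FPKM in wild-type and 13.5 FPKM in knockout cells (log2 ratio 0.01, interval −0.11 to 0.13). Xbp1 was thus at 7.85 times the FPKM of Ern1 in the wild type and 17.8 times in the knockout. Xbp1 lies on chromosome 11 from 5520641 to 5525993 of GRCm38.p6. The measured genes on either side, Znrf3 and Ccdc117, had log2 ratios of 0.06 and 0.08, and no near-identical transcript of another gene was found for Xbp1 at 95% identity over 50% of the shorter transcript.

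Cells outside the T lineage known to be rich in Xbp1 are plasma cells and some dendritic cells, so their markers are given here. Of 10 macrophage and dendritic cell markers, 8 were measured. By 1.5-fold or more, 5 were higher and none lower, against 2.71% and 5.19% of all measured genes. The 10 summed to 44.05 FPKM in wild-type and 89.55 FPKM in knockout cells. The most abundant was the class II invariant chain Cd74, at 15.4 and 39.4 FPKM. Of 12 B and plasma cell markers listed, 10 were in the table and 5 were measured, and the 10 summed to 8.29 and 11.07 FPKM. The levels of the others, Tnfrsf17 and Ighm, are not known. The plasma cell genes Jchain, Mzb1 and Sdc1 were near 0, at 0.65 and 0.36, 0.29 and 0.53, and 0.13 and 0.82 FPKM. No marker with a value in either list was at 0 in either library. Xbp1 differed by 135.8 FPKM between the libraries. The part of these cells in the Xbp1 value was not tested.

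**Figure D1:**
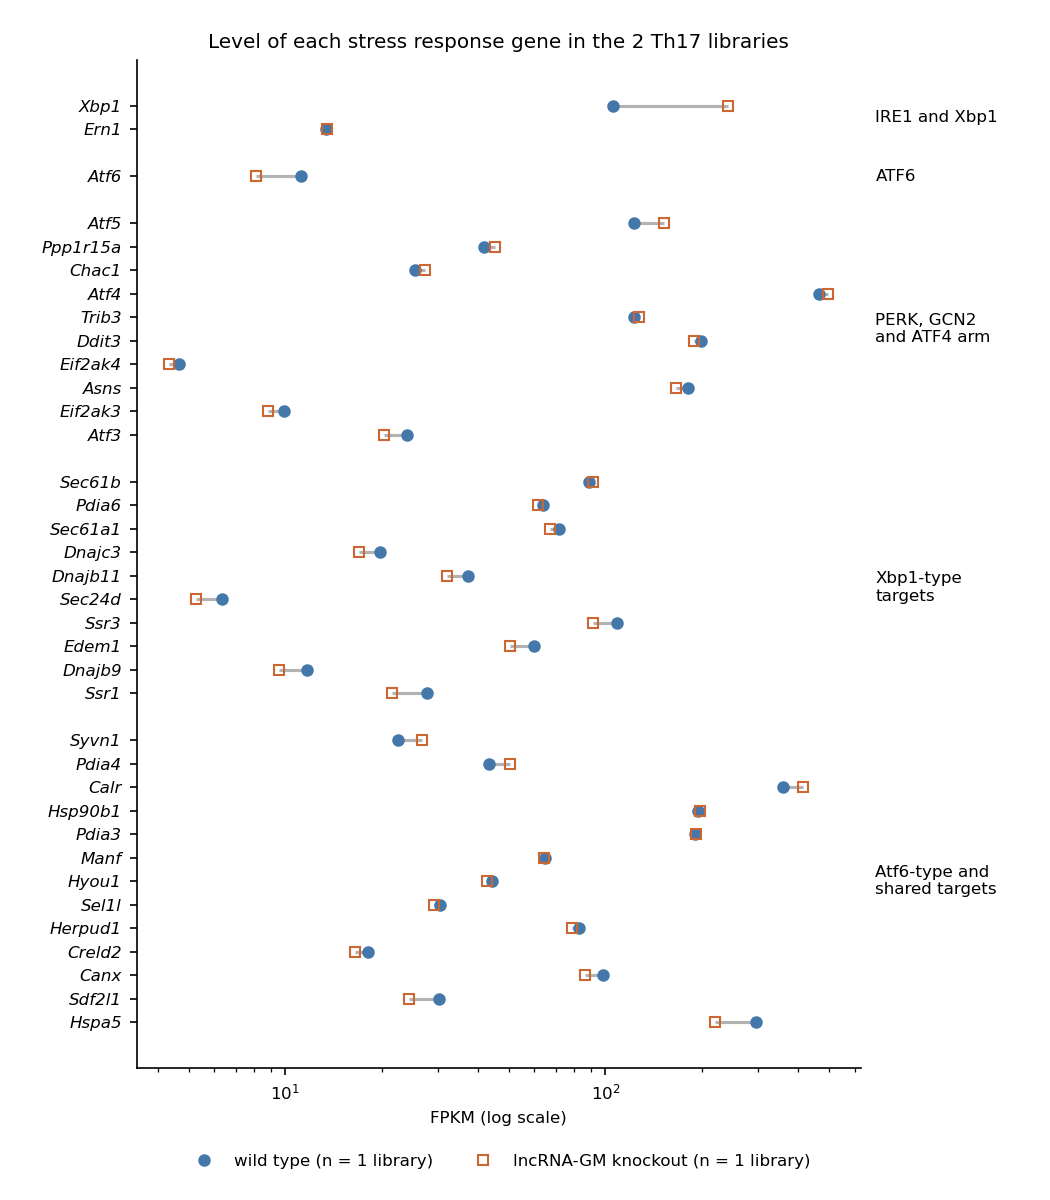
FPKM (log axis) of the 36 genes in the wild-type library (filled circles) and the knockout library (open squares), 1 library each, grouped by arm. Xbp1 has the widest gap, from 106 to 241 FPKM, while Ern1 lies at 13.4 and 13.5 FPKM.

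Of the 36 genes, 1 (Xbp1) was higher by 1.5-fold or more in knockout cells and 0 were lower by that much. Over all 10998 measured genes, 2.71% were higher by that limit and 5.19% lower, so 1 of 36 is near the background. These shares depend on the pseudocount: 298 genes were higher and 571 lower with 1, 447 and 842 with 0.1, and 127 and 228 with 5. The largest fold among the other 35 genes was 1.34. At the smaller limit of 1.2-fold, 2 of 36 genes were higher and 5 lower, against 11.6% and 17.8% of all measured genes. The median log2 ratio over the 36 genes was −0.07, and −0.03 over all measured genes.

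The next group held 10 genes known mainly as Xbp1 targets. They encode parts of the translocon and its partners (Sec61a1, Sec61b, Ssr1, Ssr3), ER co-chaperones (Dnajb9, Dnajb11, Dnajc3), the degradation factor Edem1, the COPII coat subunit Sec24d and the disulfide isomerase Pdia6. Of these 10 genes, 9 had a log2 ratio below 0 and 1 above 0, compared with 54.9% and 44.9% of all measured genes. The counting interval lay below 0 for 8 of 10 and above 0 for 0 of 10, against 31.1% and 23.7% of the 10975 measured genes with reads. Those genes include some with far fewer reads and wider intervals, so the shares are not at like depth. None of the 10 differed 1.5-fold, against 2.71% higher and 5.19% lower over all measured genes. At 1.2-fold, 2 were lower and 0 higher, against 17.8% and 11.6%, so these counts are near the background.

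Ssr1, a subunit of the translocon-associated protein complex, had the lowest ratio of this group. It was at 27.7 FPKM in wild-type and 21.6 FPKM in knockout cells, which is 21.9% lower (log2 ratio −0.34, interval −0.44 to −0.28). Its partner Ssr3 went from 109 to 91.6 FPKM (log2 ratio −0.24, interval −0.30 to −0.19). Both subunits were therefore lower in the library with more Xbp1. Ssr2 and Ssr4, also subunits of this complex, were not. Ssr2 was at 124 FPKM in wild-type and 155 FPKM in knockout cells (log2 ratio 0.32, interval 0.24 to 0.39). Ssr4 was at 109 and 116 FPKM (log2 ratio 0.09, interval −0.02 to 0.20).

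Dnajb9, an ER co-chaperone of BiP and a standard readout of spliced Xbp1, was at 11.7 FPKM in wild-type and 9.58 FPKM in knockout cells. Its log2 ratio was −0.27 (interval −0.50 to −0.08, on about 427 and 343 reads). Edem1, which delivers misfolded glycoproteins to degradation, was at 59.9 and 50.4 FPKM, or 15.9% lower (log2 ratio −0.25, interval −0.30 to −0.20). The RNA of both genes was thus lower, and not higher, where Xbp1 RNA was higher. Xbp1 activity itself was not measured.

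Sec24d, the gene with the UPRE core shown above, was at 6.35 FPKM in wild-type and 5.26 FPKM in knockout cells (log2 ratio −0.23, interval −0.47 to −0.07). Dnajb11, a BiP co-chaperone, was at 37.3 and 32.1 FPKM, and Dnajc3, an ER co-chaperone also called p58IPK, at 19.8 and 17.1 FPKM, with log2 ratios of −0.21 and −0.20. Sec61a1, the channel-forming translocon subunit, was at 71.8 and 67.2 FPKM (log2 ratio −0.10, interval −0.16 to −0.03). The last 2 members lay closest to equality. Pdia6 was at 63.7 and 61.7 FPKM (interval −0.13 to 0.03), and Sec61b, a small translocon subunit, at 88.6 and 91.5 FPKM (interval −0.09 to 0.18). Sec61b has near-identical transcripts of 3 other loci, so its value is uncertain. Sec61a1 likewise shares 392 identical bases with the antisense gene Gm44170.

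**Figure D2:**
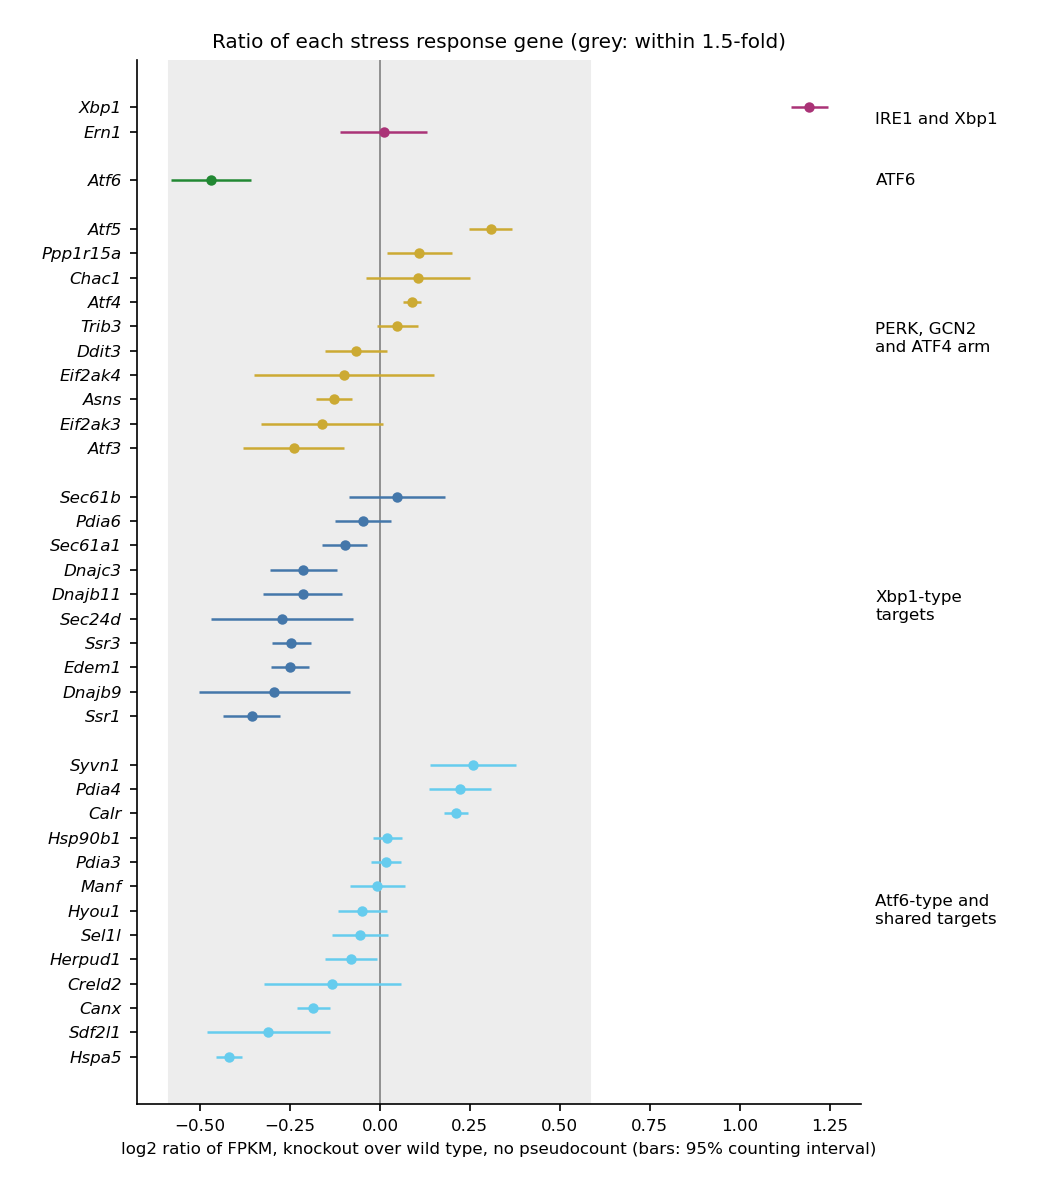
Log2 ratio of knockout to wild-type FPKM, without pseudocount, for each of the 36 genes, with 95% exact counting intervals as bars and the range within 1.5-fold in grey. Xbp1 lies at 1.19, outside the grey range, and 9 of the 10 Xbp1-type targets lie left of 0.

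The 13 genes assigned to the Atf6-type group comprise chaperones, disulfide isomerases, secreted ER stress factors and parts of the ER-associated degradation (ERAD) machinery, many of which also respond to Xbp1. Their median log2 ratio was −0.05, compared with −0.22 for the Xbp1-type targets and −0.01 for the 10 genes of the PERK, GCN2 and ATF4 arm. The Xbp1-type median was thus lower by 0.17 than the Atf6-type median and by 0.21 than the ATF4-arm median. With 1 library per genotype these differences were not tested.

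Atf6, the sensor and factor itself, was lower in the knockout library. It was at 11.2 FPKM in wild-type and 8.09 FPKM in knockout cells, or 27.8% lower (log2 ratio −0.42, interval −0.58 to −0.36). Its ratio was the lowest of the 36 genes, except that Hspa5 was lower with a pseudocount of 5 (−0.41 against −0.31), and lay at percentile 9.13 of all measured genes.

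Hspa5, which encodes the main ER chaperone BiP, was lower by a similar proportion. It was at 294 FPKM in wild-type and 220.0 FPKM in knockout cells, or 25.3% lower (log2 ratio −0.42, interval −0.46 to −0.38, on about 14519 and 10672 reads). Sdf2l1, a partner of BiP, was at 30.1 and 24.3 FPKM (log2 ratio −0.30, interval −0.48 to −0.14). Canx, the membrane lectin chaperone calnexin, was at 98.2 and 86.3 FPKM (log2 ratio −0.18, interval −0.23 to −0.14).

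Other chaperones of the group ran the opposite way. Calr, the soluble lectin chaperone calreticulin, was at 359 FPKM in wild-type and 416 FPKM in knockout cells, or 15.8% higher (log2 ratio 0.21, interval 0.18 to 0.24). Pdia4, a disulfide isomerase, was at 43.2 and 50.4 FPKM (log2 ratio 0.22, interval 0.14 to 0.31). Syvn1, the ERAD ubiquitin ligase HRD1, was at 22.4 and 26.8 FPKM (log2 ratio 0.25, interval 0.14 to 0.38). Its exons overlap those of Mrpl49, on the opposite strand, over 91 bases, and without known strandedness the reads of the 2 genes cannot be told apart there. The same limit holds for Ddit3 with Mars over 68 bases and for Manf with Dcaf1 over 146 bases. It holds also, with genes that have no value here, for Sec61a1 over 549 bases, Eif2ak3 over 485 bases, Hsp90b1 over 415 bases and Manf over 166 bases. Overlaps of at most 50 bases were found for Ppp1r15a, Pdia3, Pdia6 and Dnajb9. Hsp90b1 shares a further 133 and 84 bases, Manf 14 and Pdia4 14 with genes on the same strand.

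The remaining genes of the group differed little. Hsp90b1, the ER Hsp90 called GRP94, was at 195 and 198 FPKM, and Pdia3, the glycoprotein disulfide isomerase ERp57, at 190.1 and 192 FPKM. Herpud1, an ERAD scaffold, was at 83.0 and 78.5 FPKM (interval −0.15 to −0.01). Sel1l, the HRD1 partner, Hyou1, a nucleotide exchange factor of BiP, and the secreted factors Manf and Creld2 had log2 ratios of −0.05, −0.05, −0.01 and −0.13, each with an interval that held 0. In all, 4 of the 13 genes had an interval below 0, 3 above 0 and 6 around 0, which is close to the 31.1% below and 23.7% above over all measured genes with reads. Here too the shares over all genes include genes with fewer reads.

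Of the 8 genes with an ERSE, 5 had log2 ratios below 0 and 3 above 0, from −0.42 for Hspa5 to 0.25 for Syvn1, near the 54.9% below and 44.9% above over all measured genes. Outside the 36 genes, 9 measured genes had an ERSE in their window, with 3 log2 ratios above 0, 6 below 0 and a median of −0.11. Among these was Derl3, an ERAD gene, at 1.01 FPKM in wild-type and 0.37 FPKM in knockout cells. A further 7 measured genes had an ERSE-II, with a median of 0.11. Of these, Nucb1, which encodes nucleobindin 1, had a log2 ratio of 0.70, at 90.5 and 148 FPKM. Derl3 and Nucb1 were chosen after their values were seen.

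The arm of PERK, GCN2 and ATF4 had 5 log2 ratios above 0 and 5 below, near the 44.9% and 54.9% of all measured genes. Atf4, the central factor of the integrated stress response, which is controlled mainly at translation, was at 466 FPKM in wild-type and 496 FPKM in knockout cells, or 6.41% higher (log2 ratio 0.09, interval 0.07 to 0.11). It was the most abundant of the 36 genes by FPKM in both libraries. Atf5, a related factor induced in the same response, was at 123 and 152 FPKM, or 23.8% higher (log2 ratio 0.31, interval 0.25 to 0.37), the highest ratio after Xbp1. Its exons overlap those of Nup62, on the opposite strand, over 82 bases, and Nup62 was at 44.0 and 42.5 FPKM. Atf3, an early stress-induced factor, ran the other way, at 24.0 and 20.3 FPKM (log2 ratio −0.23, interval −0.38 to −0.10).

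The targets of Atf4 were close to equal in the libraries. Ddit3, which encodes the pro-apoptotic factor CHOP, was at 199 FPKM in wild-type and 190 FPKM in knockout cells (interval −0.15 to 0.02). Trib3, a pseudokinase that restrains this response, was at 123 and 127 FPKM (interval −0.01 to 0.11). Chac1, a glutathione-degrading enzyme, was at 25.5 and 27.4 FPKM (interval −0.04 to 0.25). Asns, asparagine synthetase, was at 181 and 166 FPKM (log2 ratio −0.13, interval −0.18 to −0.08). Ppp1r15a, which encodes the eIF2α phosphatase subunit GADD34, was at 41.9 and 45.2 FPKM (log2 ratio 0.11, interval 0.02 to 0.20). Of the 5 genes with the C/EBP-ATF element, none differed 1.2-fold, and their log2 ratios ran from −0.23 for Atf3 to 0.10 for Chac1.

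The kinases PERK and GCN2, which phosphorylate eIF2α, were measured at low levels. Eif2ak3 was at 9.90 FPKM in wild-type and 8.85 FPKM in knockout cells (log2 ratio −0.15, interval −0.33 to 0.01), and Eif2ak4 at 4.66 and 4.35 FPKM (log2 ratio −0.08, interval −0.35 to 0.15). The interval of Eif2ak3 lay wholly below 0 when its reads were taken from transcript length.

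**Figure D3:**
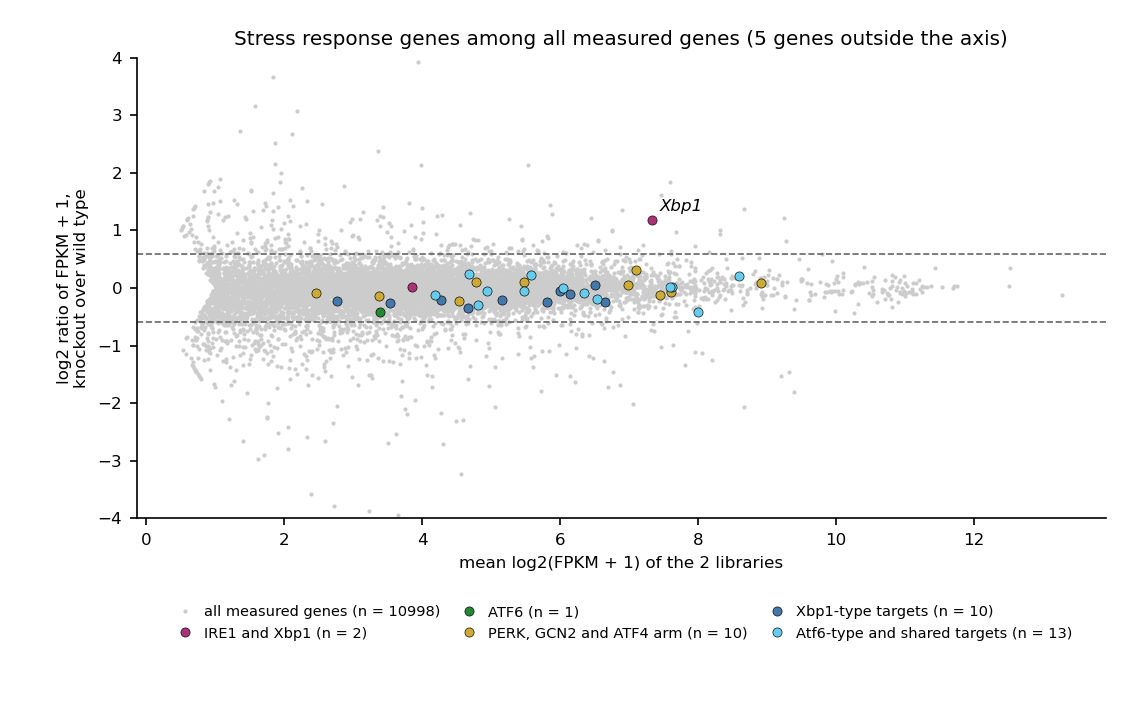
Log2 ratio of knockout to wild-type FPKM + 1 against the mean log2(FPKM + 1) of both libraries, for 10998 measured genes (grey) and the 36 stress response genes (coloured by arm); dashed lines mark 1.5-fold, and 5 genes lie outside the vertical axis. Xbp1 lies at 1.19, above the upper line, and the other 35 genes lie between the lines.

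Further genes of the pathway, from lists chosen by function, mostly differed little. In 5 lists of the secretory machinery (translocon and signal peptidase, glycosylation, ER-to-Golgi traffic, folding and ERAD), 82 of 86 genes were measured. Their median log2 ratio was −0.04. By 1.5-fold or more, 1 was higher and 2 lower, against 2.71% and 5.19% of all measured genes. The higher gene was Sec24a, a paralogue of Sec24d in the COPII coat, at 7.59 and 12.2 FPKM (log2 ratio 0.62, interval 0.57 to 0.80). The lower genes were Srp9, a subunit of the signal recognition particle, at 55.5 and 34.5 FPKM, and Stt3b, a catalytic subunit of oligosaccharyltransferase, at 64.3 and 40.2 FPKM, with log2 ratios of −0.67 and −0.66. At 1.2-fold, 4 of the 82 were higher and 17 lower, against 11.6% and 17.8% of all measured genes.

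By list, the medians were −0.05 for the translocon and signal peptidase, −0.04 for glycosylation, 0.06 for ER-to-Golgi traffic, −0.01 for folding and −0.07 for ERAD. The most abundant folding genes were the ER oxidase Ero1l, at 208 and 224 FPKM, and the disulfide isomerase subunit P4hb, at 195 and 198 FPKM. Among ERAD genes, the ATPase Vcp was at 108 and 113 FPKM and Edem2, a paralogue of Edem1, at 54.5 and 64.0 FPKM. Edem2 was thus higher where Edem1 was lower (log2 ratio 0.23, interval 0.15 to 0.31).

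Of 33 measured further targets of Atf4, none differed 1.5-fold, 11 had log2 ratios above 0 and 22 below, against 44.9% and 54.9% of all measured genes, and the median was −0.08. The list ran from −0.51 for Cth, the enzyme that makes cysteine from cystathionine, at 61.9 and 43.0 FPKM, to 0.41 for the leucyl-tRNA synthetase Lars, at 60.2 and 80.5 FPKM. Nupr1, a stress-induced chromatin protein, was at 92.2 and 68.7 FPKM (log2 ratio −0.42), and Ddit4, an inhibitor of mTORC1 signalling, at 251 and 204 FPKM (log2 ratio −0.30). The amino acid transporter subunits Slc7a5 and Slc3a2 were the most abundant, at 303 and 284 FPKM and at 291 and 259 FPKM. Of 16 measured genes for other eIF2 kinases, eIF2 factors and the machinery that activates IRE1 and ATF6, none differed 1.5-fold. Rtcb, the ligase that joins the cut ends of Xbp1 RNA, was at 82.3 and 73.7 FPKM (log2 ratio −0.16, interval −0.23 to −0.09), and the eIF2B subunit Eif2b2 at 52.9 and 60.9 FPKM.

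Substrates that IRE1 degrades were at hand in 3 measured genes. Bloc1s1, the best known of them, was at 41.3 FPKM in wild-type and 45.4 FPKM in knockout cells (interval −0.06 to 0.34), and Hgsnat was at 8.49 and 6.59 FPKM (log2 ratio −0.32, interval −0.57 to −0.16). Sparc, the last of the 3, was at 1.65 and 1.38 FPKM (log2 ratio −0.16, interval −0.74 to 0.22). Only Hgsnat of these 3 had an interval that left out 0.

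Genes known to act upstream of Xbp1 transcription lay on both sides. Of 9 measured, 2 were higher by 1.5-fold or more and 2 lower, against 2.71% and 5.19% of all measured genes. Il21, a cytokine that signals through Stat3, was at 39.9 and 75.5 FPKM (log2 ratio 0.90, interval 0.85 to 0.99), and Il4, which induces Xbp1 in B cells, was listed at 0 in wild-type cells and reached 1.59 FPKM in knockout cells. Prdm1, which encodes Blimp-1, needed for Xbp1 expression in plasma cells, was at 3.65 and 1.82 FPKM, and Bcl6, which opposes Prdm1, at 3.30 and 1.33 FPKM, with log2 ratios of −0.72 and −0.88. Irf4, a factor of plasma cell and Th17 differentiation, was at 117 and 167 FPKM (log2 ratio 0.51, interval 0.47 to 0.55). Il10, another cytokine that signals through Stat3, ran the other way by as much, at 84.1 and 57.6 FPKM (log2 ratio −0.54, interval −0.64 to −0.45). Stat3 itself was at 118 and 106 FPKM (log2 ratio −0.15, interval −0.19 to −0.11). Their part in the Xbp1 value was not tested.

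**Figure D4:**
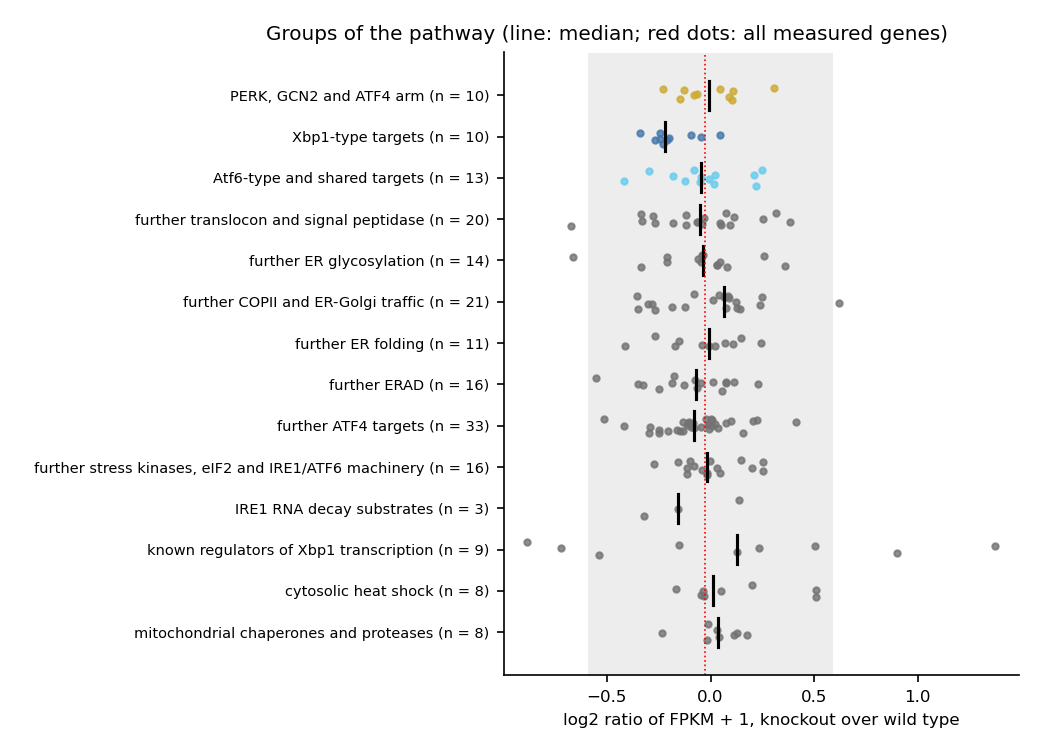
Log2 ratio of knockout to wild-type FPKM + 1 of each measured gene (points, spread vertically at random) in 3 groups of the stress response genes and 11 further lists, with the list median as a black line, all measured genes' median as a red dotted line and the range within 1.5-fold in grey. The Xbp1-type targets have a median of −0.22, and the known regulators of Xbp1 hold 4 genes outside the grey range.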

How the data were processed

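The submitters' processing notes name Bowtie2, RSEM and the GRCm38.p6 build. Tool versions, filters and strandedness are not given in the sources used here. A single table of 17002 genes was analysed. Its expression values were taken to be the authors' FPKM, as the header says only expression and the columns sum to 517664 and 514343. The authors' deposited log2 ratio was recomputed within 0.001 for 17002 rows, with 0 set to 0.01. The authors' deposited FDR exceeds 1 for 443 genes, was treated as a score and was not used.

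The authors' deposited p-value follows a Poisson comparison of the 2 libraries: for 1849 genes listed at 0 in 1 library, with p above 1e-06, it gave whole reads within 0.05 for 1841, at a wild-type share of 50.407%. Solving it with the FPKM ratio gave reads for 35 of the 36 genes. The counting intervals of these 35 genes therefore carry the same information as that p-value, without correction for the number of genes. Reads of Xbp1, whose p is 0, came from transcript length and a depth of 19400000 fragments (quartiles 18300000 and 19700000 over 118 genes with 1 transcript). Solved reads were 0.586 to 1.66 times those from length.

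Ratios were taken of FPKM + 1, on the log2 scale, for genes that reached 1 FPKM in either library. No count model was used, and no test was possible with 1 library per genotype. The grouping of targets follows general knowledge of the pathway, and Xbp1 and Atf6 share targets. The 36 genes, the lists and the markers were chosen with earlier results of these data known. Of each further list the 2 highest and 2 lowest genes past 1.5-fold were named, or else the 2 most abundant. Irf4, Il10, Stat3, Sparc, Cth, Lars, Nupr1, Ddit4, Cd74, Nup62 and the plasma cell genes were named after their values were seen. Ssr2, Ssr4, Cd4, Cd8a, Cd8b1, Gzma, Il17f, Il17a, Ccr6, Il2ra, Ctla4 and Foxp3 were likewise named after their values were seen. Promoter windows came from RefSeq (GRCm38.p6), Xbp1 transcripts from GENCODE M21, and copies were searched with BLAST 2.17.0. The scripts ran in Python 3.11.15 with scipy 1.17.1, pandas 2.3.3 and numpy 2.4.6, and were tested on simulated data. Alternatives were other pseudocounts, filters, scalings, fold limits and summaries.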

Additional observations from a re-analysis of the deposited data

How the results depend on the processing

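No paired analysis was possible because each genotype had 1 library. Under pseudocounts of 0.1 and 5, no FPKM minimum, a minimum of 5 FPKM, centring, rescaling to the same total and recovered reads, 249 of 251 values of the 36 genes stayed within their counting error, and Xbp1 ran from 1.16 to 1.21. The exceptions were Atf4 with centring and Atf6 with a pseudocount of 5, where Atf6 was −0.31 and Hspa5, at −0.41, had the lowest ratio. Changing the FPKM minimum could not move the value of a gene, because it only decides which genes are kept. Recovered reads were derived from the FPKM ratio and return that ratio without pseudocount, so they test only the pseudocount. Over all measured genes, 298 were at least 1.5-fold higher and 571 lower, 447 and 842 with a pseudocount of 0.1, and 127 and 228 with 5. Manf changed sign with centring and with rescaling. With a limit of 1.2-fold, 2 genes were higher and 5 lower, since the limit is smaller. The median of the 10 Xbp1-type targets ran from −0.23 to −0.18 and stayed below the Atf6-type and ATF4-arm medians in every setting. A narrower group of 7 targets, without Dnajb11, Dnajc3 and Pdia6, had a median of −0.24. Its differences from the Atf6-type and ATF4-arm medians were −0.20 and −0.24. The ATF4-arm median turned from −0.01 to 0.05 with a minimum of 5 FPKM, which leaves out Eif2ak4, and to 0.02 with centring. Depth limits the less abundant genes most, such as Eif2ak4, with about 281 and 258 reads.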

Other observations

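Chaperones outside the ER were measured in the same libraries. Of 8 measured genes of the cytosolic heat shock response, none differed 1.5-fold and the median log2 ratio was 0.01. The abundant chaperones Hspa8 and Hsp90ab1 were at 1113 and 1087 FPKM and at 1019 and 1170.0 FPKM in the wild type and the knockout. Hsf1, the factor of that response, had a log2 ratio of 0.51 (interval 0.39 to 0.67), at 19.7 and 28.5 FPKM, and Hsph1, an Hsp70 exchange factor, had 0.51 as well, at 11.4 and 16.7 FPKM. Both were named after their values were seen.

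Of 8 mitochondrial chaperones and proteases, none differed 1.2-fold, and the median was 0.03. Hspa9, the mitochondrial Hsp70, was at 242 and 238 FPKM, and Hspd1, which encodes Hsp60, at 110 and 119 FPKM.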
